A study of Mus musculus with 12 samples.

Results

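Chemokines are small secreted proteins that guide leukocytes through tissue, and their receptors are G protein-coupled receptors on the cells that are guided. In liver they bring monocytes, T cells and neutrophils to the portal tracts and sinusoids, and bile duct epithelium is one of their known sources. The chemokine and receptor genes described here were taken by name: every gene probe whose scanner name starts with Ccl, Cxcl or Xcl, or with Ccr, Cxcr or Cx3cr, followed by a number, or equals Pf4, Ppbp, Il8rb, Ccrl1 or Ccrl2. This gave 69 of 41174 probes, or 52 of 28785 gene names, made up of 34 ligands and 18 receptors.

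Liver RNA was hybridised to 12 Agilent mouse arrays, each of which carried knockout RNA in one dye and wild-type RNA in the other. The groups were Abcb4(-/-) mice fed cholic acid (CA) for 9 weeks, Abcb4(-/-) mice fed ursodeoxycholic acid (UDCA) for 9 weeks, and Abcb4(+/+) livers as the other channel of every array. Abcb4 is the transporter that puts phospholipid into bile, and its loss is known to injure bile ducts. Per the study design, the diets were meant to make the disease more active (CA) or less active (UDCA). Each diet had 6 arrays from 5 livers, none pooled, 3 that labelled the knockout with Cy5 (arrays 1 to 3) and 3 that labelled it with Cy3 (arrays 4 to 6), and 1 array per diet was a technical dye swap of a liver already used. The sources used here do not give the strain, sex, age or bile acid dose, the diet of the wild-type mice, or which arrays form the dye swap. Every knockout liver came from a mouse fed a bile acid, so a ratio to wild type holds the lost gene and the diet together.

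Each value is the log2 of knockout over wild type, so that 1 is a 2-fold rise. A gene was called at a limma adjusted p under 0.05 (Benjamini-Hochberg over 21693 tested probes) and is given with its standard error from the limma fit. That error rests on a spread pooled over all 12 arrays and moderated across probes, so it does not show the spread within 1 diet. A gene with several probes is represented by its brightest tested probe. Median intensities per array ran from 250.2 to 1296.4 in green and from 59.2 to 158.2 in red, and precision is limited by how many arrays there were. Of the Abcb4 probes, A_52_P223194 was lower than wild type on all 12 arrays, between -3.74 and -1.20, while A_51_P249118 ran from -1.91 to 0.34. Neither probe's place relative to the deletion is given, so how far they check the labels is unknown. UDCA array 6, alone on slide 5, stood apart for several chemokines, and values without it are given beside the calls it changed. CA array 4 did so for Ccl2.

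Of the 52 genes, 37 were bright enough to be tested, 27 ligands and 10 receptors. The 7 ligands that were too dim were Ccl1, Ccl11, Ccl22, Ccl28, Ccl8, Cxcl15 and Cxcl2. The 8 receptors that were too dim were Ccr1, Ccr10, Ccr1l1, Ccr4, Ccr7, Ccr8, Ccrl1 and Il8rb, the scanner's name for the neutrophil receptor Cxcr2. Among these Ccr1, a receptor of monocytes and neutrophils, came closest to the limit: it was well above background in CA-fed knockout RNA on 4 arrays and in wild-type RNA of those arrays on 0. The bound for its rise with CA, set by the dim wild type, was 1.27-fold. This was untested and leaves out the spread between arrays, on which the Ccr1 ratio ran from -0.04 to 0.93 with CA. The tested genes are not a neutral sample, because 17 of 37 passed the filter through a knockout side alone and 13 of those 17 were then called higher with CA. A gene that is bright only where it is high had to differ, and no count over the tested genes is offered as support for a shift of the family.

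**Figure D1:**
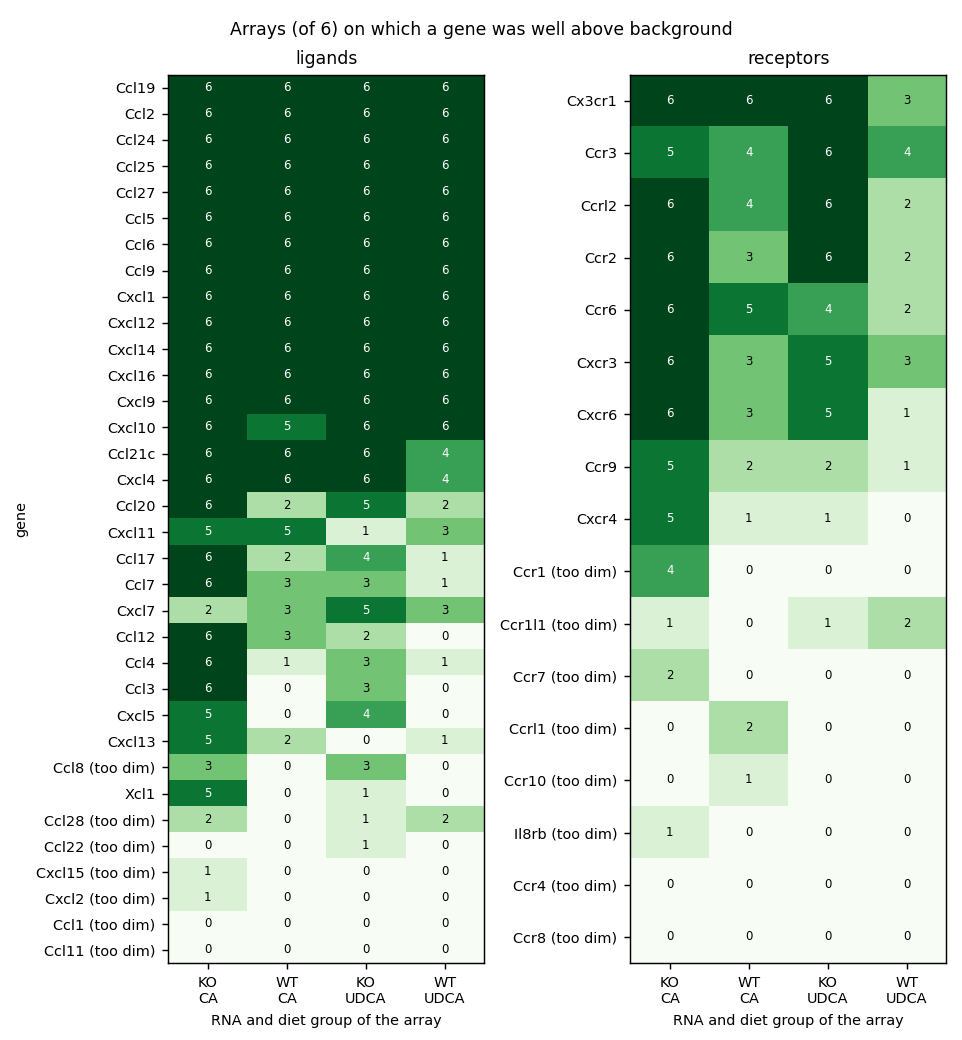
Number of arrays, of 6, on which each of 51 genes was well above background (the highest number over its probes), for knockout (KO) and wild-type (WT) RNA of the CA and UDCA arrays; ligands are on the left and receptors on the right, and darker cells mean more arrays. Genes marked too dim, such as Ccr4 and Ccl1 with 0 in all 4 columns, were not tested.

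With CA, 25 of 37 tested genes were called higher and 6 lower, beside 37.8% and 22.4% of all 15375 tested genes (60.3% in either direction), and the median was 0.88 against 0.10 over all genes. With UDCA, 17 were higher and 2 lower, beside 17.2% and 8.79% (26% in either direction), and the median was 0.52 against 0.04. The difference between the diets was called higher with CA for 13 genes and lower for 2, beside 18.8% and 8.87% (27.7% in either direction). No array set the diets side by side, so this difference is indirect. By class, 17 ligands rose and 5 fell with CA, against 11 and 2 with UDCA, while 8 receptors rose and 1 fell with CA, against 6 and 0 with UDCA.

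**Figure D2:**
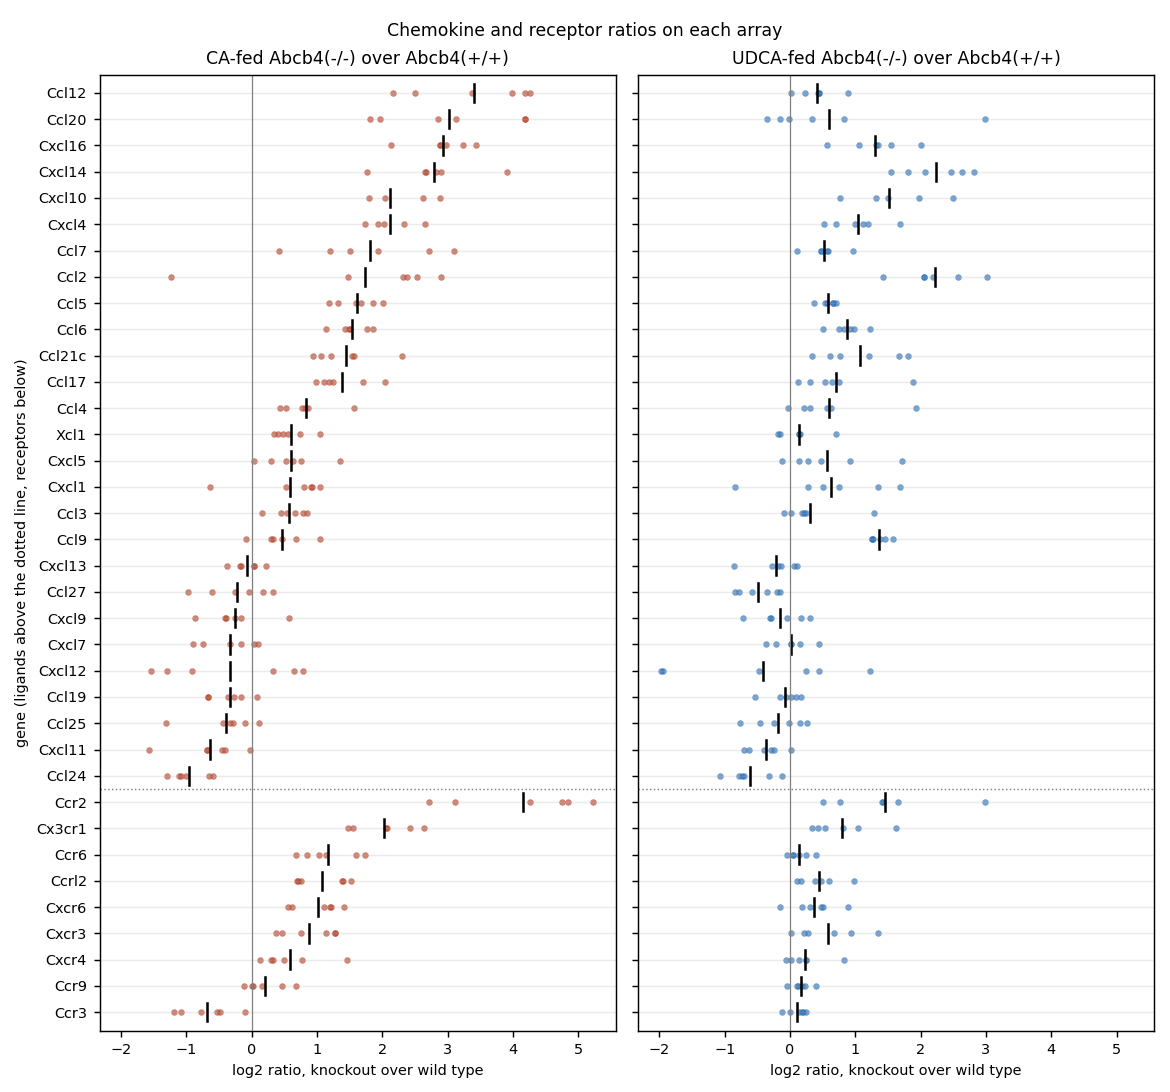
Log2 ratio of knockout over wild type on each array (points) and the fitted ratio (black bars) for 36 of the 37 tested genes, CA-fed knockouts left and UDCA-fed knockouts right; ligands are above the dotted line and receptors below. Ccr2 reaches 5.22 on a CA array, while Ccl24 is below 0 on all 12 arrays.

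Ligands of the monocyte receptor Ccr2 rose with CA. Ccl12 (probe at mm7 chromosome 11, 82184783 to 82184842), a mouse chemokine that attracts monocytes through Ccr2, read 4.26, 4.18, 3.99, 2.50, 3.37 and 2.17 on CA arrays 1 to 6 and 0.23, 0.45, 0.44, 0.01, 0.43 and 0.89 on UDCA arrays 1 to 6. The diets did not overlap for Ccl12, every CA ratio lying above every UDCA ratio, as for 7.12% of all tested genes. Its fitted ratio was 3.41 ± 0.20 with CA (adjusted p = 2.95e-09), and its UDCA ratio of 0.41 ± 0.20 was not called (adjusted p = 0.16). In wild-type RNA Ccl12 was well above background on 3 CA arrays and 0 UDCA arrays, and in UDCA-fed knockout RNA on 2. Neither ratio has an exact size, and the 95% interval of the UDCA ratio (-0.01 to 0.83) includes 0. Ccl2, the main monocyte attractant (probe at mm7 chromosome 11, 82118723 to 82118782), read 2.38, 2.90, 2.31, -1.24, 2.53 and 1.48 with CA and 2.05, 2.19, 2.57, 2.05, 1.42 and 3.02 with UDCA. Ccl2 overlapped between the diets and was called in both, at 1.73 ± 0.36 with CA (adjusted p = 0.000708) and 2.22 ± 0.36 with UDCA (adjusted p = 0.000318), and the difference of -0.49 (95% interval -1.57 to 0.59) was not called. CA array 4 alone was below 0, and without it the CA ratio was 2.29. Its spot was saturated on 3 arrays, all in CA-fed knockout RNA. Ccl7, another Ccr2 ligand, was read by a probe not well above background in wild-type RNA on any array. By that probe the fitted CA ratio was 1.81 (95% interval 1.36 to 2.27, adjusted p = 3.63e-06), with arrays from 0.42 to 3.09. The bound of 3.51-fold with CA allows for the dim wild type but not for the spread between arrays. With UDCA the Ccl7 ratio of 0.52 was not called (adjusted p = 0.0918). Its second probe, A_52_P208763, was above background in wild-type RNA on 3 CA arrays and gave 0.68 with CA (adjusted p = 0.000339) and 0.12 with UDCA (adjusted p = 0.556).

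Ccl20, Cxcl16 and Cxcl14 rose with CA, and Cxcl16 and Cxcl14 with UDCA as well. Ccl20 (probe at mm7 chromosome 1, 83327742 to 83327801), the ligand of Ccr6 on lymphocytes, read 4.18, 2.86, 4.18, 1.97, 3.13 and 1.81 with CA, and -0.35, -0.16, 0.83, -0.01, 0.33 and 2.98 with UDCA. UDCA array 6 lay above 3 CA arrays, while the other UDCA arrays lay below all of them. The fitted ratio of Ccl20 was 3.02 ± 0.39 with CA (adjusted p = 8.39e-06) and 0.60 ± 0.39 with UDCA (adjusted p = 0.296), and without UDCA array 6 the UDCA ratio was 0.05. Ccl20 was well above background in wild-type RNA on 2 arrays of each diet, so these sizes are not exact. Cxcl16 (probe at mm7 chromosome 11, 70535852 to 70535911), a membrane-bound ligand of Cxcr6, read 3.44, 2.89, 2.98, 2.14, 3.24 and 2.88 with CA, and 1.31, 1.34, 2.00, 1.05, 0.56 and 1.54 with UDCA. Cxcl16 did not overlap between diets and was called in both, at 2.93 ± 0.15 (adjusted p = 1.31e-09) and 1.30 ± 0.15 (adjusted p = 1.96e-05). A second Cxcl16 probe, whose mm7 span from 70537593 to 70540334 is longer than its 60 bases, gave 2.23 with CA and 0.94 with UDCA. Cxcl14 (probe at mm7 chromosome 13, 55377968 to 55378027), a ligand with no agreed receptor, read 2.67, 2.90, 2.82, 1.76, 3.91 and 2.66 with CA, and 2.47, 2.82, 2.07, 1.55, 1.81 and 2.64 with UDCA. These overlapped, and the difference of 0.56 (95% interval -0.07 to 1.19) was not called, while both ratios were, at 2.79 ± 0.21 and 2.23 ± 0.21 (adjusted p = 3.59e-08 and 2.07e-06). The Cxcl14 spot was saturated in CA-fed knockout RNA on 2 arrays, and with slide as a fixed block the difference was 1.38 and was called (adjusted p = 0.00929).

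Cxcl10 and Cxcl4 rose in both diets. Cxcl10, an interferon-induced ligand of Cxcr3 (probe at mm7 chromosome 5, 92334002 to 92334061), read 2.04, 2.63, 2.88 and 1.79 on the CA arrays with a value and 1.98, 1.5, 2.49, 0.76 and 1.31 on the UDCA arrays, CA arrays 4 and 6 and UDCA array 4 being flagged by the scanner software and left out of the fit. Both diets were called, at 2.12 ± 0.19 with CA and 1.52 ± 0.16 with UDCA (adjusted p = 1.45e-06 and 3.06e-05). Cxcl4 (Pf4), a platelet chemokine also made by macrophages, read 2.65, 1.94, 2.33, 2.03 and 1.74 with CA (array 4 flagged) and 1.20, 1, 1.12, 0.71, 0.52 and 1.68 with UDCA, without overlap. Its ratio was 2.11 ± 0.16 with CA (adjusted p = 5.49e-08) and 1.04 ± 0.14 with UDCA (adjusted p = 9.59e-05). Of 8 platelet markers listed only 3 were bright enough to be tested, and with CA 0 were higher and 1 lower (Clec1b, -1.29). Their median ratios lay between -0.14 and 0.08 on CA arrays. The cell source of Cxcl4 was not tested. The other called rises with CA were Ccl5 (1.61), a T cell and monocyte attractant, Ccl6 (1.53), Ccl21c (1.44), Ccl17 (1.38), Ccl4 (0.83), Xcl1 (0.60), Cxcl5 (0.60), Ccl3 (0.57) and Ccl9 (0.46). Of these Ccl5 (0.58), Ccl6 (0.87), Ccl21c (1.07), Ccl17 (0.70), Ccl4 (0.60) and Ccl9 (1.36) were also called with UDCA. Ccl3, Xcl1 and Cxcl5 were not well above background in wild-type RNA on any array, which gives bounds with CA of at least 1.49-, 1.42- and 1.46-fold. Ccl17 was above it in wild-type RNA on 2 CA arrays and 1 UDCA array, and Ccl4 on 1 of each diet, so their sizes are not exact. The UDCA call of Ccl4 (adjusted p = 0.0422) was lost in 11 of 25 alternatives, among them leaving out any 1 of UDCA arrays 1, 3, 4 and 6 or of CA arrays 1, 4 and 5, with 0.29 without UDCA array 6 (adjusted p = 0.123). Without UDCA array 6 Ccl17 with UDCA was 0.45, and the differences between the diets of Ccl17 (0.93), Ccl3 (0.47), Ccl4 (0.53) and Xcl1 (0.57), not called over all arrays, were called (adjusted p = 0.00219, 0.0325, 0.0264 and 0.0138). Ccl21c shares near-identical copies in the mouse genome, so its reads on this probe cannot be assigned to 1 copy.

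Ccl9, a mouse ligand of Ccr1 (probe at mm7 chromosome 11, 83644626 to 83644685), ran the other way. It read 0.33, 0.47, -0.09, 1.04, 0.68 and 0.30 with CA and 1.57, 1.46, 1.25, 1.37, 1.27 and 1.26 with UDCA. Every CA ratio was below every UDCA ratio, as for 3.13% of all tested genes, and Ccl9 was the one such gene of the 37. Its ratios were 0.46 ± 0.12 with CA (adjusted p = 0.00408) and 1.36 ± 0.12 with UDCA (adjusted p = 1e-06), a difference of -0.91 ± 0.17 (adjusted p = 0.0014).

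Fewer ligands fell. Ccl24, an eosinophil attractant, was below 0 on all 12 arrays, at -0.96 ± 0.13 with CA and -0.62 ± 0.13 with UDCA (adjusted p = 1.39e-05 and 0.00226). With CA alone, Cxcl11 (-0.64), Ccl25 (-0.39), Ccl19 (-0.34) and Cxcl7 (-0.34), the platelet chemokine Ppbp, were called lower, and with UDCA alone Ccl27 (-0.49). Whether they differed between the diets was tested for each and was not called. The falls of Cxcl11 and Cxcl7 with CA were called under all alternatives run. Cxcl7, however, was well above background with CA on only 2 knockout and 3 wild-type arrays. Its CA ratios were -0.90, -0.33 and -0.74 with the knockout in Cy5, but 0.09, 0.03 and -0.16 with it in Cy3. With median centring in place of loess Ccl24 was at -0.85 with CA (adjusted p = 0.0585) and -0.36 with UDCA (adjusted p = 0.549), and Ccl19 (-0.07) and Ccl25 (-0.09) with CA and Ccl27 (-0.14) with UDCA were not called either (adjusted p = 0.886, 0.869 and 0.824). The ratios not called in either diet were those of Cxcl1 (0.59 with CA, 0.62 with UDCA), Cxcl9 (-0.25 and -0.15), Cxcl12 (-0.34 and -0.41) and Cxcl13 (-0.07 and -0.22). The Cxcl12 spot was saturated on all 12 arrays, with ratios above 0 where the knockout was in Cy5 and below 0 where it was in Cy3, and a second Cxcl12 probe that was not saturated gave 0.01 and 0.00. Without UDCA array 6 the saturated probe gave -0.62 with UDCA and was called (adjusted p = 0.0104).

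To show the DNA beside these values, promoters of tested genes were read from the RefSeq table, of which 27 of 37 genes matched, with 33 promoters. The motif of the NF-kappaB type was in 12.1% of them and in 1.63% of all 32851 promoters of the table, that of the interferon response type in 9.09% and 3.44%, and TGANTCA, of the AP-1 type, in 18.2% and 7.81%, in each case on either strand over 300 bases. A match describes letters and not a bound site. The promoters of 4 ligands called higher with CA follow as examples that hold a motif. Others that hold one were not higher with CA: Cxcl1 and Ccr3 (NF-kappaB type, Ccr3 also AP-1 type), Ccl19 (interferon type), and Cxcl7, Cxcl9 and Ccl27 (AP-1 type). For the 4 shown, the 250 bases before the start are printed 5′ to 3′ in the gene's direction with the motifs in capitals (RefSeq, GRCm38.p6). Ccl20 lies at chr1:83116516-83116765 on the plus strand, Cxcl10 at chr5:92348890-92349139, Cxcl14 at chr13:56296552-56296801 and Ccl9 at chr11:83578637-83578886, all 3 on the minus strand.
Ccl20: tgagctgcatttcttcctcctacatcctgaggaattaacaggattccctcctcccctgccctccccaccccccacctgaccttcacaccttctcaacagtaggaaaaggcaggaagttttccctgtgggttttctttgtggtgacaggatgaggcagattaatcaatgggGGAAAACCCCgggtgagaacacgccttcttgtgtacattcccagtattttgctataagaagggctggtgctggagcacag
Cxcl10: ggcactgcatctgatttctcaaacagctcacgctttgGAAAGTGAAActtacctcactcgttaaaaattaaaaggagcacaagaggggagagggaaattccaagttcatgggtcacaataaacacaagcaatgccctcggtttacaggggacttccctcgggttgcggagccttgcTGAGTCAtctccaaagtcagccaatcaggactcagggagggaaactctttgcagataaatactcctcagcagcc
Cxcl14: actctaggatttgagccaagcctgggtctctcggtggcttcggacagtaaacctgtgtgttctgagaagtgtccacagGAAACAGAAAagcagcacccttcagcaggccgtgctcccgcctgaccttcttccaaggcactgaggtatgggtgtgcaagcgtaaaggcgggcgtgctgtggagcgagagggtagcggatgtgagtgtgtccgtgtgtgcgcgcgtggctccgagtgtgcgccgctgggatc
Ccl9: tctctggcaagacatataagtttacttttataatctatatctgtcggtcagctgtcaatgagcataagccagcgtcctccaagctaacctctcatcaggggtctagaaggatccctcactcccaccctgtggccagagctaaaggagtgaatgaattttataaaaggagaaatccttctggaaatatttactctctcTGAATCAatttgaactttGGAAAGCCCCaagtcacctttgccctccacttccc
In Ccl20 the capitals are the NF-kappaB-type motif. Motifs of the NF-kappaB and interferon types are on the opposite strand in all 4 promoters. In Cxcl10 they are the interferon-type motif and further on the AP-1-type motif, in Cxcl14 the interferon-type motif, and in Ccl9 the AP-1-type and then the NF-kappaB-type motif. Ccl20 and Ccl9, which both hold the NF-kappaB-type letters, differed between diets in opposite directions (2.42 and -0.91).

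Most tested receptors rose with CA, but 7 of the 10 had passed the filter through a knockout side alone, and 5 of those 7 were among the receptors called higher. Ccr2 (probe at mm7 chromosome 9, 123827135 to 123827194), through which monocytes leave the marrow and enter tissue, read 4.75, 4.84, 5.22, 3.12, 4.26 and 2.71 with CA, and 1.65, 1.41, 1.43, 0.76, 0.50 and 2.99 with UDCA. All CA ratios were above 5 of the UDCA ratios, and UDCA array 6 lay above CA array 6. Ccr2 was at 4.15 ± 0.29 with CA (adjusted p = 1.53e-08) and at 1.46 ± 0.29 with UDCA (adjusted p = 0.00161), or 1.02 without UDCA array 6. By this probe Ccr2 was well above background in wild-type RNA on 3 CA and 2 UDCA arrays, so its ratios have no exact size. Over the alternatives its CA ratio ran from 2.59 to 5.59. Its second probe, A_52_P580853, gave 1.04 with CA and 0.19 with UDCA, where the UDCA value was not called (adjusted p = 0.513) and wild type was dim on every array.

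Cx3cr1 rose in both diets. Cx3cr1, a monocyte receptor, read 2.42, 2.64, 2.07, 1.47, 2.05 and 1.55 with CA and 0.54, 0.81, 1.04, 0.42, 0.33 and 1.62 with UDCA, where only UDCA array 6 reached the CA range. It was at 2.03 ± 0.16 and 0.79 ± 0.16 (adjusted p = 7.1e-08 and 0.00228); its dimmer probe A_51_P350853 gave 0.77 with CA and -0.05 with UDCA, where the UDCA value was not called. With the scanner software's processed ratios the Cx3cr1 difference between diets was 0.14 (adjusted p = 0.78).

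Ccr6, the receptor of Ccl20 on lymphocytes, read 1.73, 1.59, 1.03, 0.84, 1.13 and 0.68 with CA and 0.24, 0.14, 0.04, 0.04, -0.04 and 0.39 with UDCA, without overlap. It was called with CA (1.17 ± 0.12, adjusted p = 7.69e-07), and with UDCA it was at 0.14 ± 0.12 (adjusted p = 0.458). Ccrl2, a receptor that does not signal like the others and binds chemerin, read 1.39, 1.38, 1.52, 0.71, 0.76 and 0.70 with CA and 0.60, 0.17, 0.38, 0.47, 0.11 and 0.98 with UDCA. It was called in both, at 1.08 ± 0.13 and 0.45 ± 0.13 (adjusted p = 5.21e-06 and 0.0205), and without UDCA array 6 the UDCA ratio was 0.30 (adjusted p = 0.0871). Its second probe, A_52_P334593, gave 0.86 with CA (adjusted p = 0.000257) and 0.36 with UDCA, which was not called (adjusted p = 0.117).

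Cxcr6, found on T and NKT cells, read 1.41, 1.22, 1.20, 0.56, 1.10 and 0.61 with CA and 0.47, 0.51, 0.30, -0.15, 0.18 and 0.88 with UDCA. It was at 1.02 ± 0.13 with CA (adjusted p = 6.4e-06) and 0.36 ± 0.13 with UDCA (adjusted p = 0.0491). That UDCA call was lost in 17 of 26 alternatives, among them leaving out any 1 of UDCA arrays 1, 2, 3, 5 and 6 or of CA arrays 2, 3, 5 and 6, with a ratio of 0.21 without UDCA array 6 (adjusted p = 0.206). Cxcr3, on activated T cells, read 0.75, 1.28, 1.14, 0.37, 1.28 and 0.47 with CA and 0.67, 0.94, 0.02, 0.21, 0.27 and 1.35 with UDCA. Cxcr3 overlapped between the diets, with ratios of 0.88 ± 0.17 and 0.58 ± 0.17 (adjusted p = 0.000395 and 0.0218), or 0.39 with UDCA without array 6 (adjusted p = 0.088).

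Cxcr4, the receptor of Cxcl12, read 0.33, 1.46, 0.77, 0.49, 0.13 and 0.29 with CA and 0.24, 0.01, 0.24, -0.06, 0.14 and 0.83 with UDCA; wild type was dim on every array for this probe, and with CA it was at least 1.44-fold higher (0.58 ± 0.15, adjusted p = 0.00408). Ccr9 read 0.00, 0.68, 0.16, 0.02, -0.12 and 0.47 with CA and 0.40, 0.12, 0.19, -0.05, 0.10 and 0.23 with UDCA, and was not called (adjusted p = 0.127 and 0.307). Ccr3, the eosinophil receptor, was the one lower receptor: it read -1.19, -0.49, -0.78, -0.53, -1.08 and -0.10 with CA and 0.18, 0.00, -0.13, 0.24, 0.20 and 0.13 with UDCA. Its ratios were -0.69 ± 0.12 with CA (adjusted p = 0.000172) and 0.10 ± 0.12 with UDCA (adjusted p = 0.594).

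Of the genes higher with CA than with UDCA, 12 were Ccl12 (3.00), Ccr2 (2.69), Ccl20 (2.42), Cxcl16 (1.63), Ccl7 (1.29), Cx3cr1 (1.24), Cxcl4 (1.07), Ccr6 (1.03), Ccl5 (1.02), Ccl6 (0.66), Cxcr6 (0.65) and Ccrl2 (0.63), and the 2 lower ones were Ccl9 (-0.91) and Ccr3 (-0.80). The groups did not overlap for Ccl12, Ccl5, Cxcl16, Cxcl4 and Ccr6, all higher with CA, and for Ccl9. With wild type dim, the Ccl12 and Ccl7 values are fitted ones with no exact size. Ccl12 was well above background in wild-type RNA on 3 CA arrays and 0 UDCA arrays. The second Ccl7 probe gave 0.56 (adjusted p = 0.0337), and the second Ccrl2 probe 0.50, not called (adjusted p = 0.109). Wild-type RNA was also above background on few arrays for Ccr2 (3 CA and 2 UDCA arrays), Ccl20 (2 and 2) and Cxcr6 (3 and 1). Their differences have no exact size either. Slides 3 and 4 held arrays of both diets, and the sign of all 15 differences was the same within each, with Ccr2 at 2.73 and 1.81, Ccl12 at 3.03 and 1.87 and Ccl7 at 0.98 and 0.05. Each of these slides held only 1 CA array, CA array 5 on slide 3 and CA array 6 on slide 4. CA arrays 1 to 4 were on slides 1 and 2, which held no UDCA array, and UDCA array 6 was alone on slide 5. For those arrays diet and slide cannot be told apart. The within-slide values are not corrected for dye. On slide 3 the CA-fed knockout was in Cy3 and the UDCA-fed knockouts in Cy5, so diet and dye cannot be told apart there. With slide as a fixed block 10 of the 15 were still called, and Ccl6 (0.67), Ccl7 (0.60), Ccr3 (-0.73), Ccrl2 (0.61) and Cxcr6 (0.79) were not (adjusted p = 0.118, 0.287, 0.186, 0.189 and 0.0548). With median centring in place of loess, 6 of the 13 higher and 1 of the 2 lower were called, and those of Cxcl16, Cxcl4, Cx3cr1, Ccl5, Ccl6, Cxcr6, Ccrl2 and Ccl9 were not (adjusted p = 0.0602 to 0.546).

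**Figure D3:**
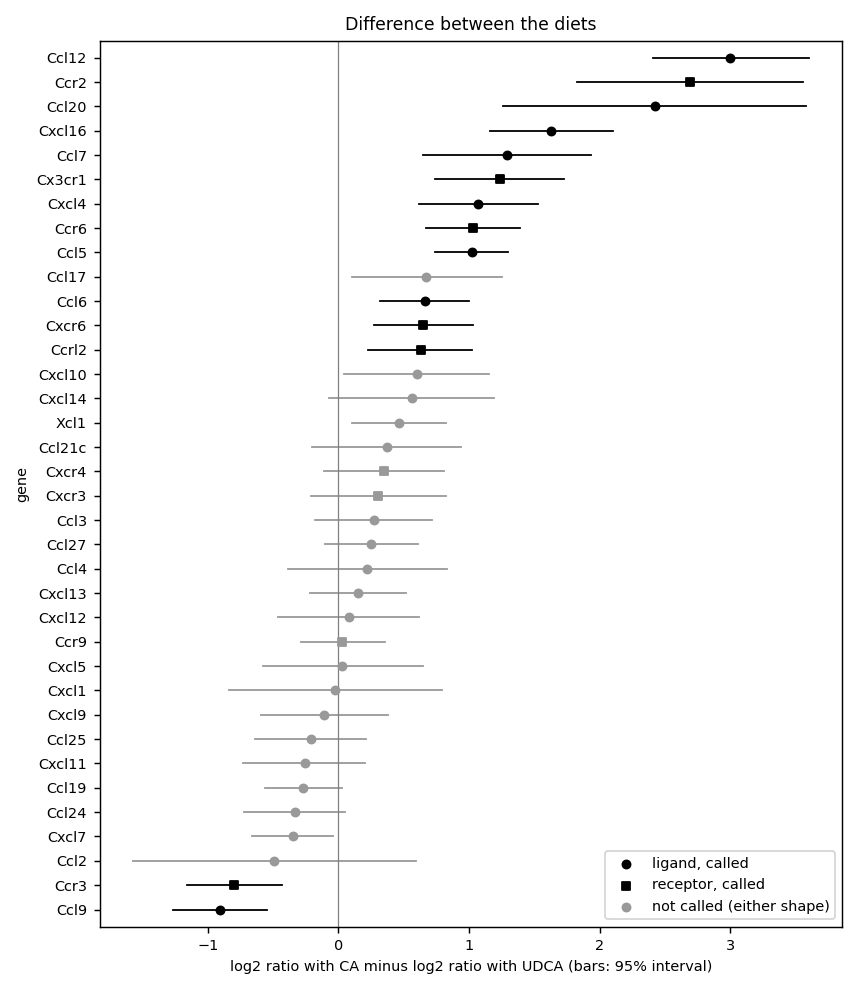
Log2 ratio with CA minus log2 ratio with UDCA for 36 of the 37 tested genes (circles ligands, squares receptors, bars 95% intervals); black points were called. Ccl12 is at 3.00 and Ccl9 at -0.91.

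Of 43 textbook pairs of receptor and ligand, 19 had both partners tested, 23 had a receptor that was too dim and 7 a ligand that was. In the CA group both partners rose in 10 pairs, 7 of them being Ccr2 with Ccl2, Ccl7 and Ccl12, Ccr6 with Ccl20, Cxcr3 with Cxcl10, Cxcr6 with Cxcl16, and Cx3cr1 with Cx3cl1 (4.14 ± 0.26), a membrane-bound chemokine outside the name rule. With UDCA both rose in 6, 4 of them being Ccr2 with Ccl2, Cxcr3 with Cxcl10, Cxcr6 with Cxcl16, and Cx3cr1 with Cx3cl1 (2.44). Pairs that share a partner are not independent. Beside these counts, 17 of 27 tested ligands and 8 of 10 tested receptors were higher with CA, and 11 and 6 with UDCA. Several partners, such as Ccr2, Ccl12 and Ccl20, passed the filter through a knockout side alone. The pair counts are therefore not offered as support for matched changes. For Ccr6 and Ccl20 both partners were called with CA and neither with UDCA, and the difference was called for each. Partners went opposite ways in 4 pairs with CA: Ccr3 fell while Ccl5 and Ccl7 rose, and Cxcl11 fell while Cxcr3 and Ackr3 (1.02), a scavenging receptor named Cmkor1 on the array, rose. Ccr3 and Ccl24 both fell. Among pairs that could not be matched, Ccl17 rose but its receptor Ccr4 was too dim, Ccl21c rose and Ccl19 fell but Ccr7 was too dim, and the neutrophil ligands Cxcl1 and Cxcl5 had Cxcr2 too dim.

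**Figure D4:**
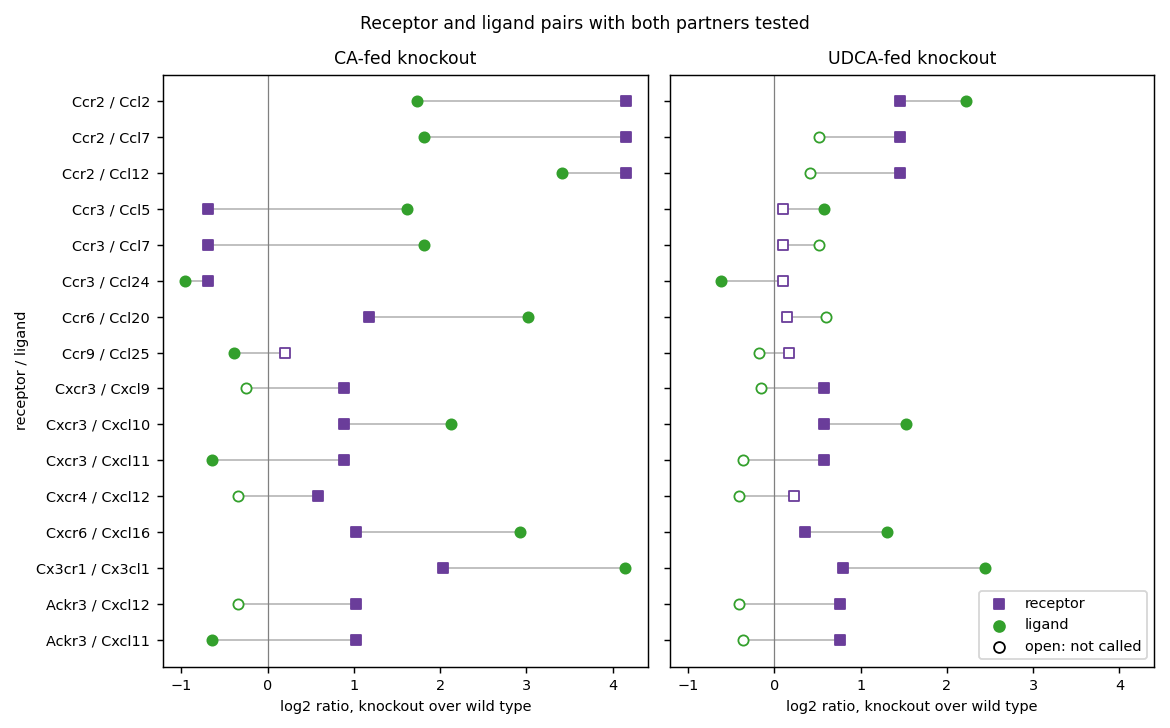
Log2 ratio of knockout over wild type for receptor (squares) and ligand (circles) in 16 of the 19 pairs with both partners tested, CA-fed knockouts left and UDCA-fed knockouts right; open symbols were not called. With CA, Ccr2 at 4.15 stands right of its 3 ligands.

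Markers of several cell types moved beside these genes. Monocyte and macrophage markers gave 12 of 14 tested genes higher and 0 lower in both diets, Cd14 rising by 3.73 with CA and 2.50 with UDCA, with list medians per array of 1.34 to 2.37 with CA and 0.61 to 1.32 with UDCA. All 6 markers of resident Kupffer cells fell with CA, Clec4f at -3.37, with list medians of -2.49 to -1.41 with CA and -0.52 to 0.35 with UDCA. Cholangiocyte markers gave 9 of 9 higher with CA and 6 of 9 with UDCA, with list medians of 1.76 to 3.72 and 0.40 to 2.41, UDCA array 6 being the highest UDCA array. T cell markers gave 4 of 8 higher and 1 lower with CA and 1 and 0 with UDCA, with list medians of 0.03 to 0.67 and 0.08 to 0.32. Of 12 neutrophil markers 3 were tested, of which S100a9 (1.53) and S100a8 (1.27) rose with CA and Csf3r was at -0.31 (adjusted p = 0.0693). All 10 markers of stellate cells and fibroblasts rose with CA and 9 with UDCA, with list medians of 0.94 to 2.02 and 0.95 to 1.55. Of 2 tested eosinophil and mast cell markers 1 rose with CA, Siglecf at 1 on the log2 scale (adjusted p = 0.000628), while Ccr3 and Ccl24 fell. These counts stand beside 37.8% of all tested genes higher and 22.4% lower with CA, and 17.2% and 8.79% with UDCA. The part of cell numbers in the chemokine ratios was not tested, and in whole liver more cells of a type and more RNA per cell cannot be told apart.

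**Figure D5:**
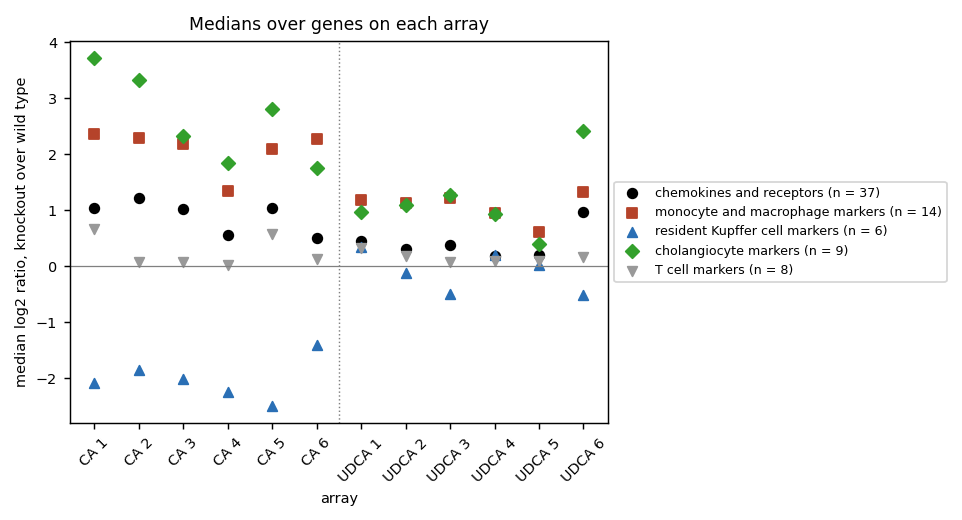
Median log2 ratio of knockout over wild type on each of the 12 arrays (CA left of the dotted line, UDCA right), over the 37 tested chemokine and receptor genes and over 4 marker lists. The chemokine median was 0.98 on UDCA array 6 and between 0.18 and 0.45 on the other UDCA arrays.

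Genes of the wider pathway were counted as well, beside the same shares of all tested genes (37.8% higher and 22.4% lower with CA, 17.2% and 8.79% with UDCA). Of 22 tested genes of receptor signalling, 18 rose and 1 fell with CA and 10 and 1 with UDCA, led by Rgs2 (3.19 with CA), a regulator of G protein signalling. Of 15 leukocyte adhesion genes, 13 rose with CA and 5 with UDCA, Vcam1 at 3.92 and Icam1 at 2.61 with CA, both adhesion proteins of activated endothelium. Of 16 inducers in the NF-kappaB and interferon group, 14 rose and 1 fell with CA and 6 and 0 with UDCA, Tlr2 at 3.11 and Relb at 2.97 with CA. Of 9 genes that process or hold chemokines, 5 rose and 0 fell with CA and 4 and 1 with UDCA. Among 10 atypical or unmatched chemokine genes 4 rose and 3 fell with CA, Cx3cl1 being the largest.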

How the data were processed

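The members and gene lists were chosen with earlier results of these data known. Spot intensity, mean and local background, was deposited unnormalized for green and red, read with Feature Extraction 9.5.3.1 per the file headers, which also gave processed intensity and its log10 ratio. The authors' deposited series table holds log2 ratios (column medians -0.044 to 0.047); how it was normalized is unknown, its CA columns run wild type over knockout, and its direction was taken from its correlation with the scanner ratios (0.749 to 0.975 in size).

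Intensities were corrected with normexp (offset 50) and loess-normalized within each array, with flagged values missing (0.937%) (limma 3.58.1, data.table version 1.17.8, R 4.3.3). All 12 arrays were fitted with limma, with a dye term per probe. On simulated ratios for the CA comparison over 21693 probes, 98% of changes of 1 and 38% of changes of 0.5 (log2) were recovered, with 4.9% false calls. The simulation changed only 200 probes and drew the arrays independently, with no shared slide or liver. It therefore does not give the error rate of the calls reported here. No pair of arrays reached the residual correlation of 0.3 set as a sign of the technical swap (highest 0.123 with CA and 0.0729 with UDCA), so 6 arrays were kept, 1 pair per diet shares a liver, and p-values are too small by an amount that was not tested. Arrays of the same slide had a consensus correlation of 0.217, which the main fit leaves out. Replicate numbers do not pair the samples (correlations of -0.454 to 0.0989).

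A probe was tested if well above background on at least 5 of 6 arrays in knockout or wild-type RNA of either diet. The filter was first read as green or red channel, and the members' results were seen under that reading (32 genes tested) before it was changed to the RNA side (37 genes tested); both counts are given below. Named genes are all members called, with values per array for the 8 largest changes with CA, 5 with UDCA, 5 in the difference, and every tested receptor, except that 1 gene, counted in the totals, is not reported here. Alternatives were tried for background, normalization, filter, flags, slide, replicate numbers and left-out arrays. Probe positions are mm7, and promoters GRCm38.p6.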

Additional observations from a re-analysis of the deposited data

Results flagged for a closer look

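On UDCA array 6, the array alone on slide 5, 6 genes lay far above the other 5 UDCA arrays: Ccl20 at 2.98 (others -0.35 to 0.83), Ccl4 at 1.93 (-0.03 to 0.63), Ccl17 at 1.88 (0.12 to 0.75), Ccl3 at 1.28 (-0.10 to 0.24), Cxcr4 at 0.83 (-0.06 to 0.24) and Xcl1 at 0.70 (-0.18 to 0.15). On CA array 4 Ccl2 was at -1.24, against 1.48 to 2.90 on the other CA arrays, and on CA array 6 Cxcl1 was at -0.64, against 0.52 to 1.05. These are 8 of 74 groups examined, and chance flags about 1 in 20 groups.

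Among the genes whose knockout ratios differed between the diets in the limma fit, 14 are given here. They were higher with CA for Ccl12 (3.00), Ccr2 (2.69), Ccl20 (2.42), Cxcl16 (1.63), Ccl7 (1.29), Cx3cr1 (1.24), Cxcl4 (1.07), Ccr6 (1.03), Ccl5 (1.02), Ccl6 (0.66), Cxcr6 (0.65) and Ccrl2 (0.63), and lower for Ccl9 (-0.91) and Ccr3 (-0.80). Wild-type signal was dim for Ccl12 with UDCA and for the Ccl7 probe in both diets, so neither value has an exact size. The same holds for Ccr2, Ccl20 and Cxcr6, whose wild-type signal was above background on 3 or fewer arrays of each diet.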

How the results depend on the processing

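The reading of the dim-probe filter was changed after the chemokine results had been seen. By green or red channel, 32 genes were tested and 20 were higher and 6 lower with CA, 16 and 2 with UDCA, and 13 and 2 in the difference; by RNA side, 37 were tested, with 25 and 6, 17 and 2, and 13 and 2. The change added Ccl3, Ccl4, Cxcl5, Xcl1 and Cxcr4, all 5 called higher with CA. No result reversed. Median centring in place of loess, which moved the median of all probes to 0.23 with CA and 0.29 with UDCA, gave 3 lower with CA, 0 lower with UDCA (where Ccl24 was at -0.36 and Ccl27 at -0.14), and 6 higher and 1 lower in the difference. It also ended the CA calls of Ccl9, Cxcl5 and Cxcr4 (adjusted p = 0.202, 0.092 and 0.196) and the UDCA calls of Ccl5 and Cxcr6 (adjusted p = 0.0575 and 0.0937). The series table gave 4 lower in the difference, and slide as a fixed block 1. Without UDCA arrays 4 and 5 together, which correlate least with their group, 1 gene was lower with UDCA (Ccl27 at -0.45, adjusted p = 0.0777) and 10 were higher in the difference. The pairs of arrays left out together were chosen after seeing the data: without UDCA arrays 2 and 6, 14 were higher with UDCA, and without CA arrays 3 and 4, 16. Without 1 array at a time, with CA 24 to 26 were higher and 5 to 7 lower, with UDCA 13 to 17 and 2 to 3, and in the difference 12 to 17 and 2 to 2. The replicate block, on numbers that do not pair the samples, gave 13 higher and 2 lower in the difference. Within slides there is no test. Dim wild-type signal limits the brightest probe of 5 genes to bounds in both diets, namely Ccl3, Ccl7, Cxcl5, Xcl1 and Cxcr4. The causes of these changes were not tested.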
